A study of Arabidopsis thaliana with 6 samples.

Results

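The 10 genes described here encode calcium transporters and channels of Arabidopsis thaliana and were chosen by gene identifier: the vacuolar cation/proton exchangers CAX1 (AT2G38170), CAX2 (AT3G13320) and CAX3 (AT3G51860), the glutamate receptor-like channels GLR3.1 (AT2G17260), GLR3.2 (AT4G35290), GLR3.3 (AT1G42540) and GLR3.6 (AT3G51480), the plasma-membrane calcium pumps ACA8 (AT5G57110) and ACA10 (AT4G29900), and the vacuolar channel TPC1 (AT4G03560). They are 10 of 28775 genes in the count files, and all 10 had enough reads to be tested, as had 18961 genes in all. The RNA, enriched for poly(A) tails, came from seedling shoots at an age of 2 weeks (22 °C, photoperiod 16 h light and 8 h dark), and there were 3 libraries of the myc2 mutant and 3 of its wild type, the accession Col-0. The question is which transcripts change with mutation of MYC2, a basic helix-loop-helix factor of the jasmonate pathway. No treatment or wound is given for either genotype, and which myc2 allele was used is not stated in the sources used here.

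Plant cells keep calcium low in the cytosol and high in the vacuole, the cell wall space and the endoplasmic reticulum. Channels let calcium into the cytosol, and pumps driven by ATP and exchangers driven by the proton gradient take it out again, so that a stimulus appears as a short calcium peak. When a leaf is wounded, glutamate receptor-like channels carry an electrical and calcium signal along the veins to distant leaves, where jasmonate is then made, and MYC2 is a main transcription factor of the jasmonate response.

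MYC2 and its relatives bind the G-box, so the promoters of the members were read for it. The 1000 bp upstream of each annotated gene start (RefSeq TAIR10.1) were searched on both strands for the G-box CACGTG, for the G-box-like variant CACATG, and for CGCGTT, the rapid stress response element (RSRE) known from promoters that respond quickly to wounding. No match overlapped another. A G-box stood upstream of CAX3 alone among the members, while 14.8% of 27443 promoters of the genome held one. The G-box-like variant stood upstream of CAX1 (3 matches), CAX2, CAX3 and GLR3.3, or 4 of 10 members, against 37.7% of all promoters, and CGCGTT upstream of ACA8, against 8.66% of all promoters. ACA10, TPC1, GLR3.1, GLR3.2 and GLR3.6 held none of these letters in that window. Some windows reach into other genes. The 250 bp before TPC1 and GLR3.6 overlap AT4G03550 and AT3G51478, and the stretch around the CAX1 match at 973 bp overlaps AT2G08940. A match is a string of 6 letters and not a measured binding site, and no binding was measured in the files used here.

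The stretches that hold matches near the members whose levels differ most are given 5′ to 3′ on the strand of the gene, in lower case with the motif in capitals. The CAX1 window is the 250 bp before the gene (chr2:15993327-15993576, minus strand), with the variant read as CATGTG on this strand, its first base 153 bp from the start. The CAX3 stretch (chr3:19238711-19238774, plus strand) holds the G-box, 577 bp from the start, and the variant, 553 bp from it. The ACA8 site (chr5:23118533-23118562, minus strand) lies 864 bp from the start. The GLR3.3 site (chr1:15972928-15972957, plus strand), 114 bp from the start, is shown for contrast because its gene holds the CAX1 variant and did not pass the test below.
CAX1 upstream window: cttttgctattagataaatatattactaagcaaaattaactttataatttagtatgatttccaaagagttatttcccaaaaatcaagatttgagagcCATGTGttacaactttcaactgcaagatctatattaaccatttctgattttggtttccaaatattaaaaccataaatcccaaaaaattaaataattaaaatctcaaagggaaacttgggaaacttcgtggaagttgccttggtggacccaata
CAX3 G-box and variant: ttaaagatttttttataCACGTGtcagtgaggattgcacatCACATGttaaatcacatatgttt
ACA8 RSRE letters: tttccatgtttcCGCGTTtttttgaaacgc
GLR3.3 variant: agttctagtataCACATGcatttttttttc

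**Figure D1:**
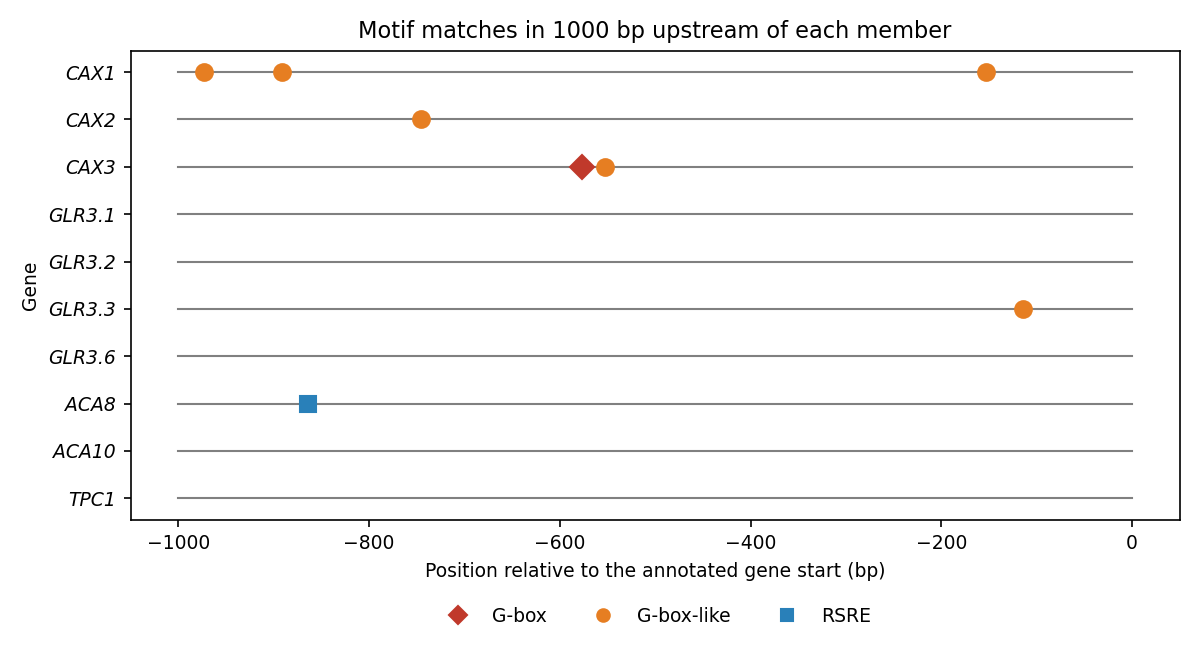
Matches to the 3 motifs in the 1000 bp upstream of each member, as distance in bp from the annotated gene start (0 at the right), with 1 line per gene. Diamonds are G-boxes, circles the G-box-like variant and squares the RSRE letters, and 5 of the 10 genes hold none.

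Levels are read counts scaled to library size (CPM, scaled by trimmed mean of M-values), and means carry the SD of the 3 libraries of a genotype (n = 3 each). Fold changes are myc2 over Col-0 on the log2 scale, from the quasi-likelihood test of edgeR across all 18961 genes, and a gene is called higher or lower at a Benjamini-Hochberg adjusted p under 0.05. Libraries held between 21165967 and 30604815 counted reads, which makes a single read equal to 0.0344 to 0.0482 CPM. MYC2 itself gave 1822, 2007 and 1864 reads in the myc2 libraries, against 4808, 4085 and 5087 in the Col-0 libraries, so the labels and the gene's own level went together. In the file headers, the myc2 libraries carry 1 name prefix, Col-0 replicates 1 and 2 another, and Col-0 replicate 3 still another. This prefix was taken as the sequencing run, and the word run is used below in that sense. Whether the prefix marks a run or some other batch was not tested. No prefix occurs in both genotypes, so an effect of the run cannot be separated from an effect of the genotype. The replicates are called biological by the study, but no source used here says whether separate cultures were grown, so part of the variation that the p-values rest on may be technical. In bulk shoots, fewer cells of a type and less RNA per cell cannot be told apart.

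Of the 10 members, CAX1 and CAX3 were lower in myc2, ACA8 and ACA10 were higher, and the 4 GLR3 genes, CAX2 and TPC1 did not pass the test. Thus 4 of 10 members were called, 2 in each direction, where 36.3% of all tested genes were called, 17.6% higher and 18.7% lower. The libraries of the genotypes did not overlap for the same 4 members, where 49.7% of all tested genes did not overlap. These shares are near those of all genes, so nothing about the members is read from the number called, and the results are which of them moved and by how much. The median log2 fold change of the members was -0.03, against 0.01 over all tested genes.

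CAX1, the vacuolar calcium/proton exchanger best known in leaf mesophyll, had the largest difference of the members and had a 2.0-fold lower level in myc2. It reached 258, 262 and 251 CPM in the myc2 libraries, against 495, 498 and 549 CPM in the Col-0 libraries. The genotypes were far apart, with the highest myc2 library well below the lowest Col-0 library. The means were 257 ± 5.68 CPM in myc2 and 514 ± 30.4 CPM in Col-0, and the log2 fold change was -1.00 (SE 0.0605, 95% interval -1.13 to -0.87, edgeR adjusted p = 1.67e-07). Its counts of 6584 to 7158 reads in myc2 libraries and 10332 to 15959 in Col-0 libraries leave little counting error.

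CAX3, its close relative, which in Arabidopsis can act together with CAX1, was also lower in myc2. It reached 9.54, 11.4 and 11.9 CPM in the myc2 libraries, against 19.2, 16.96 and 20.0 CPM in the Col-0 libraries. All myc2 libraries lay below all Col-0 libraries. CAX3 averaged 10.9 ± 1.24 CPM in myc2 and 18.7 ± 1.56 CPM in Col-0, with a log2 fold change of -0.77 (SE 0.110, 95% interval -1.01 to -0.54, edgeR adjusted p = 2.00e-04).

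CAX2, an exchanger of lower selectivity that also carries manganese and other metals, did not follow them. Its levels were 42.6, 34.7 and 43.2 CPM in the myc2 libraries, against 40.5, 38.0 and 41.2 CPM in the Col-0 libraries. The Col-0 libraries all lay within the range of the myc2 libraries. The log2 fold change was 0.01 with a 95% interval of -0.19 to 0.21 (edgeR adjusted p = 0.954), an interval that leaves out differences of the size seen in CAX1 and CAX3.

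**Figure D2:**
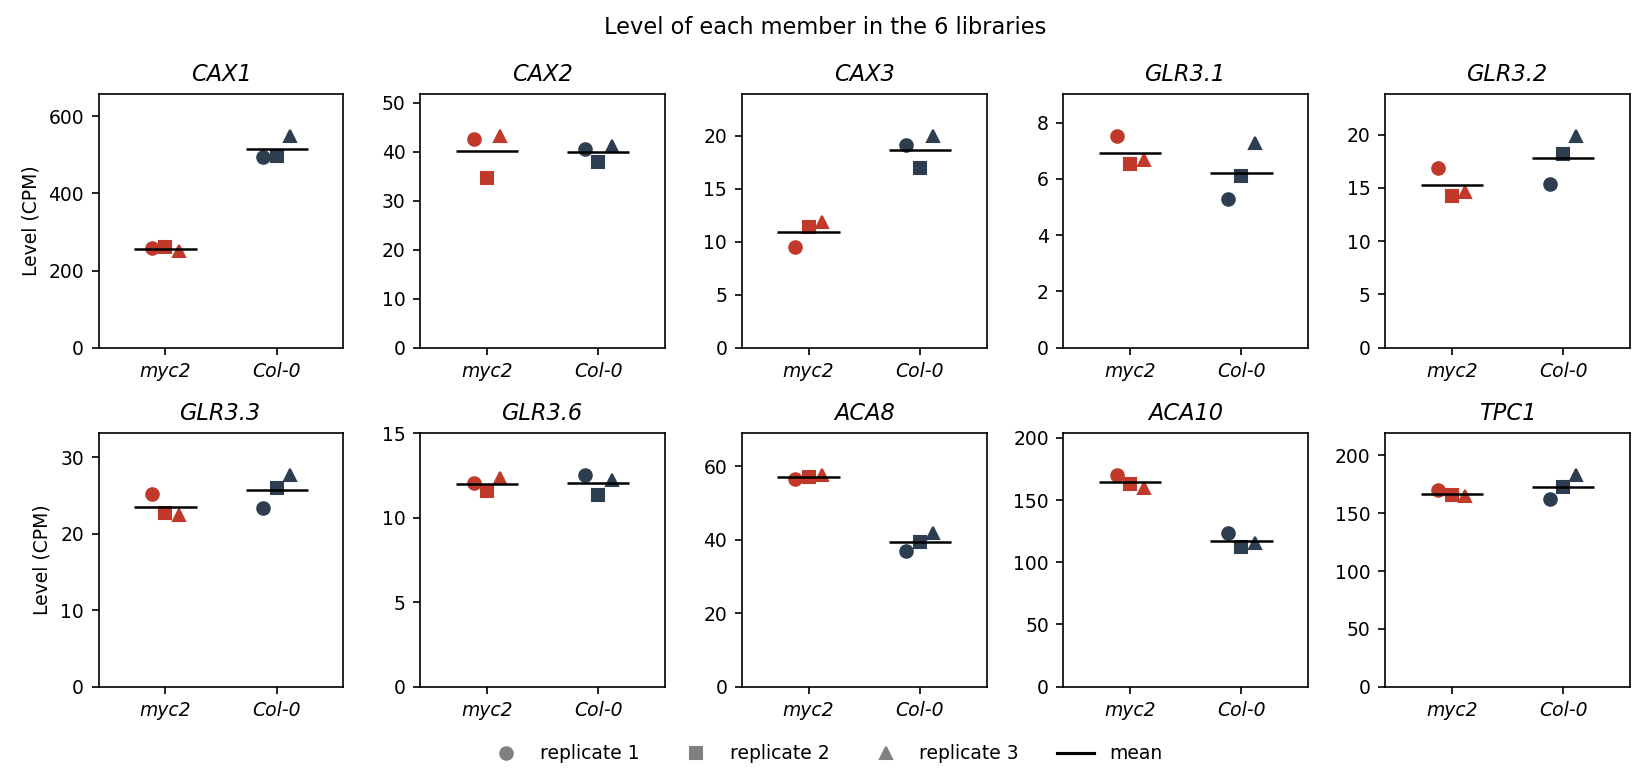
Level of each of the 10 members in CPM (vertical axes, each starting at 0) in the 3 myc2 and 3 Col-0 libraries, where marker shapes give the replicate and lines the mean. The genotypes are apart for CAX1, CAX3, ACA8 and ACA10 and overlap for the other 6 genes.

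To compare levels between genes, CPM were divided by the length of the merged exons in kilobases (kb). The exchangers CAX1, CAX2 and CAX3 added up to 118 ± 0.705 CPM per kb in myc2 and 217 ± 12.3 CPM per kb in Col-0. CAX1 held 80.4 ± 1.72% of that sum in myc2 and 87.6 ± 0.528% in Col-0, a difference of -7.17 percentage points. CAX2 held 14.9 ± 1.75% in myc2 and 8.09 ± 0.323% in Col-0, with its own level near equal in the genotypes. CAX3 kept a like share of the sum, 4.62 ± 0.551% in myc2 and 4.30 ± 0.248% in Col-0. In the exact two-sided permutation test over libraries, p was 0.10 for the sum and for the shares of CAX1 and CAX2, the smallest value that 3 against 3 libraries allow, and 0.50 for the share of CAX3. Because CAX1 makes up most of the sum, the sum and the shares of CAX1 and CAX2 restate its difference and add no evidence to it.

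ACA8, a calmodulin-activated calcium pump of the plasma membrane, was higher in myc2. It reached 56.7, 57.1 and 57.7 CPM in the myc2 libraries, against 36.9, 39.3 and 41.8 CPM in the Col-0 libraries. The myc2 libraries were close to each other and all above the Col-0 libraries. The means were 57.2 ± 0.513 CPM in myc2 and 39.4 ± 2.45 CPM in Col-0, a 1.45-fold rise (log2 fold change 0.54, SE 0.0702, 95% interval 0.38 to 0.69, edgeR adjusted p = 1.11e-04).

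ACA10, the nearest relative of ACA8 and likewise a plasma-membrane pump, was higher in myc2 by a like factor. Its levels were 170, 163 and 160 CPM in the myc2 libraries, against 123, 113 and 116 CPM in the Col-0 libraries. Here too the genotypes did not overlap. ACA10 averaged 164 ± 5.29 CPM in myc2 and 117 ± 5.54 CPM in Col-0, a 1.402-fold rise (log2 fold change 0.49, SE 0.0610, 95% interval 0.35 to 0.62, edgeR adjusted p = 7.77e-05). ACA10 overlaps 116 bp of AT4G29890 on the other strand, whose log2 fold change was also 0.49 (edgeR adjusted p = 0.00150), from 2013 reads in the myc2 libraries and 1302 in the Col-0 libraries. It also overlaps the lncRNA genes AT4G08245 (1006 bp) and AT4G08255 (214 bp) on that strand, which are not in the count files. Since the strand setting of the counting is not given, reads of these overlaps cannot be assigned, and ACA10 had 13148 reads in myc2 libraries and 8592 in Col-0 libraries.

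Per kb, ACA10 stood 2.66 ± 0.109 times above ACA8 in myc2 and 2.76 ± 0.283 times above it in Col-0 (exact permutation p = 0.70). Both pumps together gave 52.7 ± 1.11 CPM per kb in myc2 and 37.2 ± 0.987 CPM per kb in Col-0. With CAX1 lower and ACA10 higher, the ratio of the vacuolar exchanger to the plasma-membrane pump was 2.48 ± 0.0721 in myc2 and 6.97 ± 0.580 in Col-0 per kb, with no overlap between libraries (exact permutation p = 0.10, the smallest possible). That ratio was formed after both differences were seen and adds no evidence to them.

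**Figure D3:**
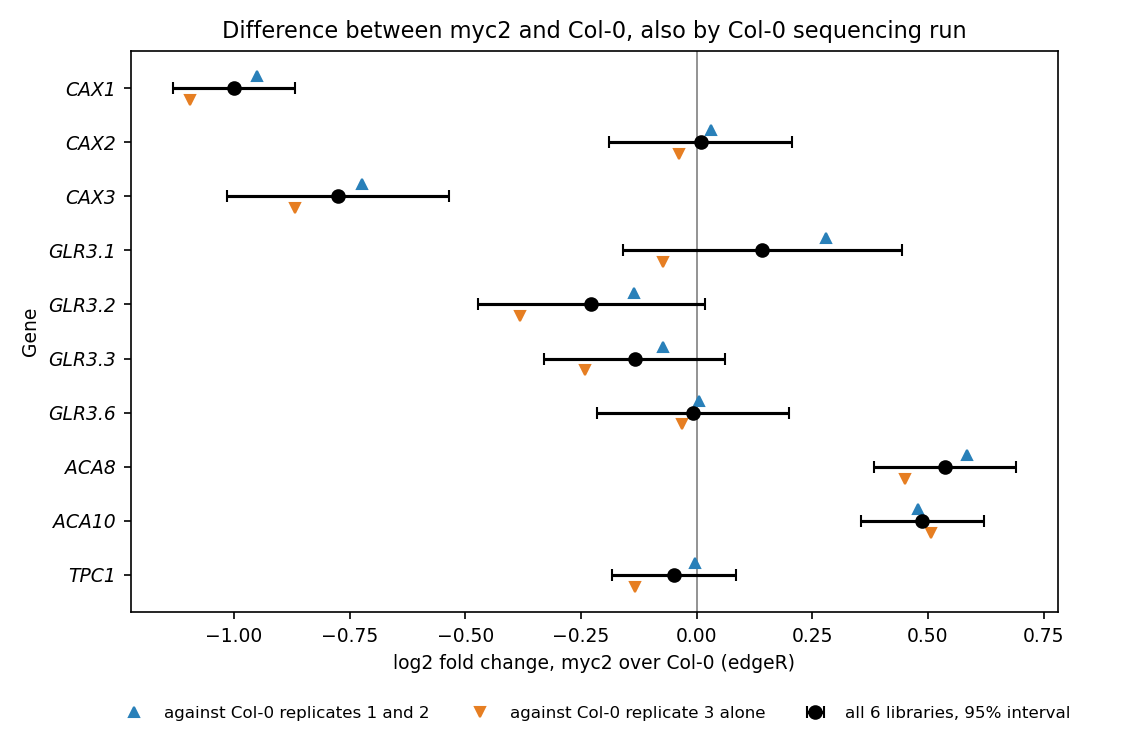
Log2 fold change of myc2 over Col-0 for each member (horizontal axis), with black points and bars for all 6 libraries and the 95% interval, and triangles for myc2 against Col-0 replicates 1 and 2 (upward) or Col-0 replicate 3 alone (downward). CAX1 and CAX3 lie below 0 and ACA8 and ACA10 above 0 against both Col-0 runs, while CAX2, GLR3.1 and GLR3.6 have values on both sides of 0.

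The GLR3 genes that serve wound signalling showed no difference that passed the test. GLR3.3, needed for the leaf-to-leaf wound signal and found in the phloem, had 25.2, 22.7 and 22.4 CPM in the myc2 libraries, against 23.4, 26.0 and 27.7 CPM in the Col-0 libraries. Its log2 fold change was -0.13 (95% interval -0.33 to 0.06, edgeR adjusted p = 0.271). The genotypes overlapped through myc2 replicate 1, which lay above Col-0 replicate 1. GLR3.6, the partner of GLR3.3 in that signal and found beside the xylem, had 12.04, 11.6 and 12.3 CPM in the myc2 libraries, against 12.5, 11.3 and 12.3 CPM in the Col-0 libraries. These 6 values were near equal, with a log2 fold change of -0.01 (95% interval -0.21 to 0.20, edgeR adjusted p = 0.964).

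GLR3.1, a channel that contributes to wound-evoked surface potentials, had 7.53, 6.52 and 6.67 CPM in the myc2 libraries, against 5.29, 6.12 and 7.26 CPM in the Col-0 libraries. Col-0 replicate 3 lay above myc2 replicates 2 and 3, and the log2 fold change was 0.14 (95% interval -0.16 to 0.44, edgeR adjusted p = 0.455). GLR3.1 had the fewest reads of the members, 124 to 211 per library, and the widest interval. GLR3.2, another channel of the same clade, had 16.9, 14.3 and 14.6 CPM in the myc2 libraries, against 15.4, 18.2 and 19.9 CPM in the Col-0 libraries. Only Col-0 replicate 1 fell inside the myc2 range, and the log2 fold change was -0.23 (95% interval -0.47 to 0.02, edgeR adjusted p = 0.137). Without Col-0 replicate 1 GLR3.2 was called lower in myc2 (log2 fold change -0.32, edgeR adjusted p = 0.0405). Against Col-0 replicate 3 alone, which is then assumed to vary like the other libraries, GLR3.2 (-0.38, edgeR adjusted p = 0.0122) and GLR3.3 (-0.24, edgeR adjusted p = 0.0496) were both called lower.

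Together the 4 GLR3 genes gave 16.5 ± 1.03 CPM per kb in myc2 and 17.7 ± 1.52 CPM per kb in Col-0 (exact permutation p = 0.30). GLR3.3 held the greatest part of that sum, 41.5 ± 0.597% in myc2 and 42.4 ± 0.471% in Col-0. GLR3.1 held the smallest, 12.7 ± 0.213% in myc2 and 10.6 ± 0.776% in Col-0. The libraries of the genotypes did not overlap in either share (exact permutation p = 0.10 for each, the smallest possible), with those of GLR3.3 almost touching. They did overlap in the shares of GLR3.2 (exact permutation p = 0.20) and GLR3.6 (exact permutation p = 0.50), and shares of 1 sum depend on each other. GLR3.3 shares 9 bp with the neighbouring gene AT1G42550, which was higher in myc2 (log2 fold change 0.74, edgeR adjusted p = 0.00752), and reads of that overlap cannot be assigned either.

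TPC1, the slow vacuolar channel, whose hyperactive fou2 allele is known for raised jasmonate, was level between the genotypes. It had 170, 166 and 165 CPM in the myc2 libraries, against 162, 172 and 183 CPM in the Col-0 libraries. The myc2 libraries lay inside the Col-0 range, and the log2 fold change was -0.05 (95% interval -0.18 to 0.09, edgeR adjusted p = 0.572). With 3575 to 5322 reads per library, its interval is among the narrowest of the members.

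The order of the members by level per kb was nearly the same in both genotypes. CAX1 led with 94.9 ± 2.097 CPM per kb in myc2 and 190 ± 11.2 CPM per kb in Col-0. TPC1 came next with 59.3 ± 1.06 CPM per kb in myc2 and 61.3 ± 3.67 CPM per kb in Col-0, then ACA10 with 38.3 ± 1.23 and CAX2 with 17.6 ± 2.09 CPM per kb in myc2, against 27.3 ± 1.29 and 17.5 ± 0.747 CPM per kb in Col-0. The lead of CAX1 over TPC1 was thus much smaller in myc2. ACA8 ranked just below CAX2 in both genotypes, with 14.4 ± 0.129 CPM per kb in myc2 and 9.92 ± 0.618 CPM per kb in Col-0. CAX3 was the member that changed place. With 5.45 ± 0.619 CPM per kb in myc2 it stood below GLR3.3 and its libraries overlapped those of GLR3.2, while with 9.31 ± 0.779 CPM per kb in Col-0 it stood above GLR3.3 and its libraries overlapped those of ACA8. GLR3.6 and GLR3.1 closed the order, with 3.22 ± 0.0997 and 2.095 ± 0.166 CPM per kb in myc2, against 3.23 ± 0.170 and 1.89 ± 0.300 CPM per kb in Col-0. Apart from CAX3 with GLR3.2 in myc2 and ACA8 with CAX3 in Col-0, the libraries of neighbours in the order did not overlap.

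**Figure D4:**
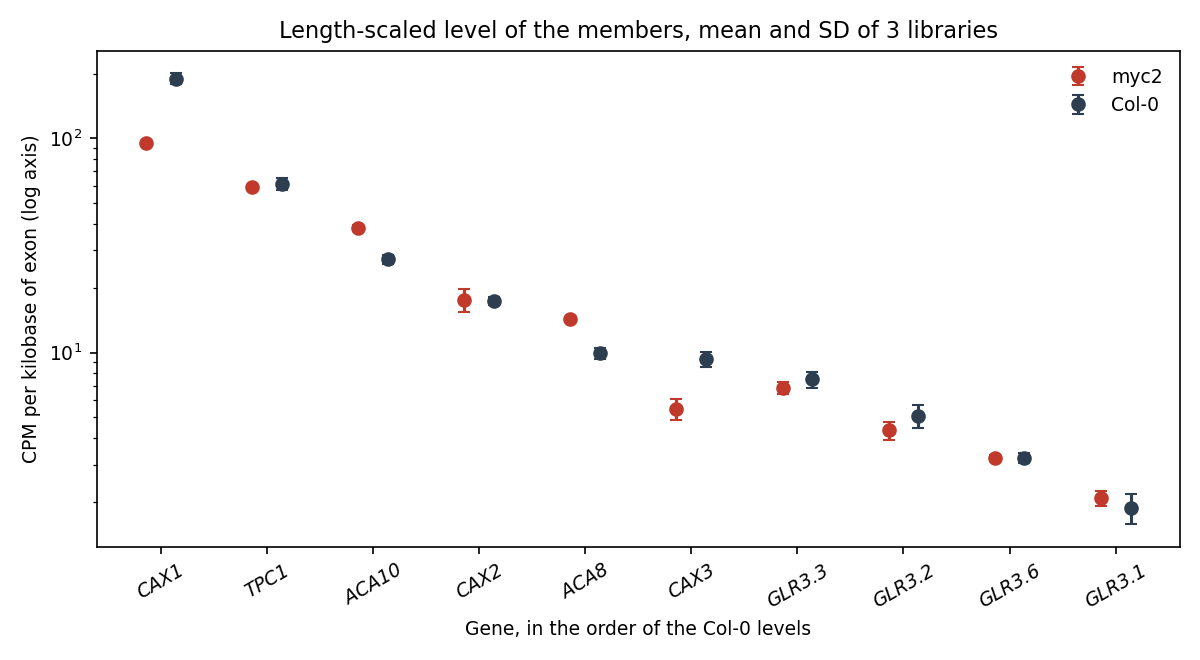
Level per kilobase of exon (CPM per kb, log axis) of the 10 members, mean and SD of 3 libraries, with myc2 left of Col-0 for each gene and genes in the order of the Col-0 levels. CAX1 is at 94.9 in myc2 and 190 in Col-0, and CAX3 drops below GLR3.3 in myc2.

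When Col-0 replicate 3 was set against Col-0 replicates 1 and 2, none of the 10 members passed the edgeR test, with the lone library assumed to vary like the others. At the same threshold 2950 of the 18961 genes did, and the nearest member was CAX1 with a log2 difference of 0.15, replicate 3 being higher (edgeR adjusted p = 0.0755). The 4 called members kept their direction and their call under all 15 alternative settings. Across these settings the log2 fold change ran from -1.095 to -0.95 for CAX1, from -0.87 to -0.68 for CAX3, from 0.45 to 0.59 for ACA8 and from 0.45 to 0.53 for ACA10.

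Shoots hold several tissues, so marker genes were read beside the members. Of 7 root markers, RHD6 had no reads in any library and WOX5, PLT1, COBL9 and TIP2;3 had between 0 and 7 reads per library. SCR and SHR, which shoots also express, were each higher in myc2 (log2 fold change 0.35), but not against Col-0 replicate 3 alone (edgeR adjusted p = 0.0700 and 0.102). The 5 mesophyll markers summed to 30467 to 31700 CPM in myc2 and 32150 to 38708 CPM in Col-0. Among them RBCS1A (-0.24) and CA1 (-0.20) were lower in myc2, while LHCB1.3, GLK1 and GAPB did not pass. Of 7 vascular markers, XCP1 (-1.19), IRX3 (-1.11), XCP2 (-0.89) and SUC2 (-0.54) were lower in myc2 and SWEET12 (0.58) was higher. APL (-0.10) and SWEET11 (0.16) did not pass, and the 7 markers summed to 484 to 513 CPM in myc2 and 552 to 631 CPM in Col-0. Of the vascular list 5 genes also differed between the Col-0 runs, as did all 5 of the mesophyll list. The mesophyll marker LHCB1.3 was called higher in myc2 against Col-0 replicates 1 and 2 (0.14, edgeR adjusted p = 0.00367) and lower against Col-0 replicate 3 alone (-0.19, edgeR adjusted p = 0.00140). The part of tissue make-up in the levels of the members was not tested.

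Other genes of calcium transport, and related channels and proton pumps, were read from 5 lists. Of their 52 genes, 42 were tested, with a median log2 fold change of 0.01. In myc2, 7 were higher and 12 lower, and 23 did not pass. Of these, 4 were called and changed at least 2-fold, as were 1242 of all 18961 tested genes. Over all tested genes, 17.6% were called higher and 18.7% lower, and nothing is read from the number called in any of these lists. Among the other cation exchangers, 2 of 8 tested genes were lower in myc2 and none was higher. AT5G17850, annotated as a sodium/calcium exchanger, averaged 2.21 ± 0.0956 CPM in myc2 and 4.01 ± 0.180 CPM in Col-0 (log2 fold change -0.86, edgeR adjusted p = 7.07e-04), and MHX, a vacuolar magnesium and zinc exchanger, had a log2 fold change of -0.33 (edgeR adjusted p = 0.0104), a call lost without myc2 replicate 3 (edgeR adjusted p = 0.0542), which leaves 1 called exchanger. CCX4 (0.26, edgeR adjusted p = 0.0830) and NCL, which had the highest CPM of those that did not pass (169 ± 4.80 CPM in myc2 and 183 ± 15.7 CPM in Col-0), complete those named. CAX6 had no reads in any library and CAX4 had 1 read in all.

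Among the other pumps, which lie in inner membranes or the plasma membrane, 1 of 10 tested genes was higher in myc2 and 4 were lower. ACA1 reached 62.6, 56.3 and 60.9 CPM in the myc2 libraries, against 133, 128 and 121 CPM in the Col-0 libraries. These values do not overlap, and the log2 fold change was -1.09 (SE 0.0675, edgeR adjusted p = 2.10e-07), close in size to that of CAX1. ACA13 had 19 to 22 reads per library in myc2 and 68 to 102 in Col-0, and its log2 fold change was -2.16 (SE 0.215, edgeR adjusted p = 1.24e-05). The vacuolar pumps went opposite ways, with ACA4 at 32.7 ± 1.104 CPM in myc2 and 53.0 ± 2.79 CPM in Col-0 (log2 fold change -0.70, edgeR adjusted p = 1.64e-05) and ACA11 at 73.3 ± 2.08 CPM in myc2 and 56.6 ± 2.85 CPM in Col-0 (0.37, edgeR adjusted p = 0.00102). ECA4 (-0.41) was lower, and ECA3, with 73.4 ± 1.24 CPM in myc2 and 66.6 ± 4.81 CPM in Col-0, did not pass (0.14, edgeR adjusted p = 0.137). The rise of ACA8 and ACA10 was not shared by most pumps of the list.

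Among the other glutamate receptor-like channels, 5 of 10 tested genes were higher in myc2, 1 was lower and 4 did not pass, with a median log2 fold change of 0.36. Over all tested genes, 17.6% were called higher and 18.7% lower, with a median of 0.01. GLR2.7 reached 20.3, 18.2 and 18.02 CPM in the myc2 libraries, against 13.2, 12.6 and 12.1 CPM in the Col-0 libraries (log2 fold change 0.57, SE 0.0918, edgeR adjusted p = 5.01e-04). GLR3.4, of the same clade as the members, reached 52.5, 49.7 and 51.4 CPM in the myc2 libraries, against 35.7, 37.1 and 42.8 CPM in the Col-0 libraries (0.41, SE 0.0803, edgeR adjusted p = 0.00201). Neither gene's libraries overlapped between genotypes. GLR1.1 (0.41), GLR3.7 (0.31) and GLR2.1 (0.53) were higher as well, but GLR3.7 lost its call under 3 of 15 alternatives and GLR2.1 under 6 of 14. GLR2.8, at 4 to 12 reads per library in myc2 and 10 to 24 in Col-0, was called lower (-1.23, edgeR adjusted p = 0.0399), a call lost under 8 of 14 alternatives. GLR1.4 (-0.05, edgeR adjusted p = 0.833) did not pass. GLR3.5 (0.48, edgeR adjusted p = 0.0754), which like GLR3.7 is of the clade of the members, did not pass either. Whether the GLR3 members differ from these genes in their response was not tested.

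Among 9 other channel genes, from outside the glutamate receptor-like family, 1 was higher and 4 were lower in myc2. CNGC19, a cyclic nucleotide-gated channel that takes part in calcium signals after herbivory, had 1.72 to 2.17 CPM in the myc2 libraries, against 3.68 to 5.08 CPM in the Col-0 libraries (log2 fold change -1.16, SE 0.180, edgeR adjusted p = 3.81e-04). AT1G11960, of the early-responsive-to-dehydration family, had a log2 fold change of -0.80 (edgeR adjusted p = 1.08e-05). MSL10, a mechanosensitive channel that also takes part in wound signals, averaged 28.3 ± 1.36 CPM in myc2 and 40.4 ± 0.709 CPM in Col-0 (-0.51, edgeR adjusted p = 1.95e-04). OSCA1, a channel opened by osmotic stress, was lower (-0.24), a call lost under 4 of 15 alternatives (edgeR adjusted p up to 0.0880). CNGC2, a channel of the defence response, was higher (0.39), but it also differed between the Col-0 runs (edgeR adjusted p = 8.75e-04). MCA1 (-0.02, edgeR adjusted p = 0.887) did not pass.

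The exchangers run on the proton gradient made by proton pumps, and these differed little in size, with log2 fold changes from -0.19 to 0.14. Of 5 such genes, the vacuolar pyrophosphatase AVP1 was called lower, at 762 ± 3.47 CPM in myc2 and 871 ± 76.3 CPM in Col-0 (log2 fold change -0.19, edgeR adjusted p = 0.0392), a call lost under 5 of 15 alternatives, among them leaving out any 1 of the myc2 libraries (edgeR adjusted p = 0.121 to 0.1251). AVP1 also differed between the Col-0 runs (edgeR adjusted p = 0.00475). VHA-A2 (0.14, edgeR adjusted p = 0.0827) and the plasma-membrane pump AHA1 (-0.12, edgeR adjusted p = 0.147) did not pass. VHA-A2 was called higher under 2 of 15 alternatives, both with Col-0 replicate 3 out of the comparison. Against Col-0 replicate 3 alone, the log2 fold change was -0.19 for AHA1. For VHA-A3 it was -0.16 there and -0.03 with all 6 libraries.

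**Figure D5:**
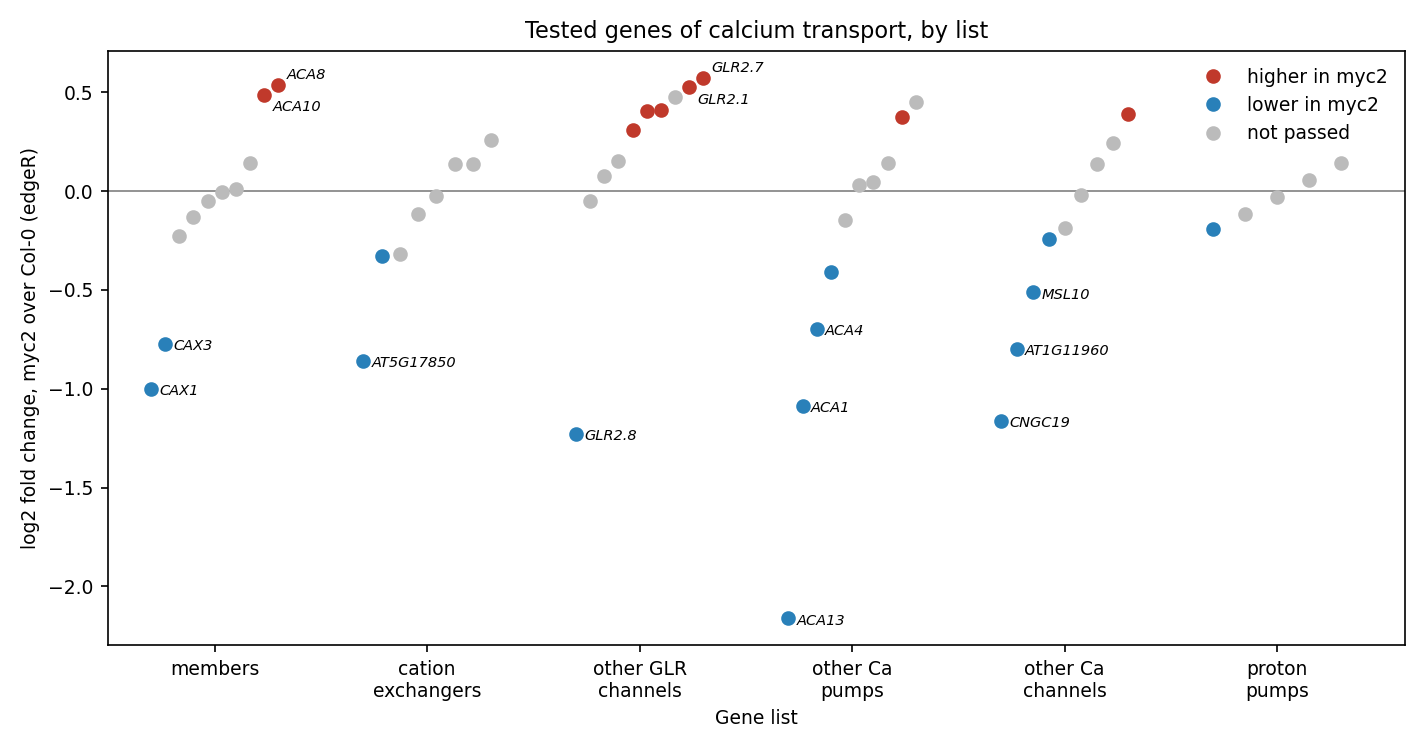
Log2 fold change of myc2 over Col-0 (vertical axis) for each tested gene of the members and of the 5 other lists, 1 point per gene, sorted within its list, with names on called genes of larger change. Red points were called higher in myc2, blue points lower, and grey points did not pass, and ACA13 lies lowest at -2.16.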

How the data were processed

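Libraries were prepared with the Illumina TruSeq RNA kit. The submitters' processing notes name StringTie, SAMtools, HISAT2, fastp and the TAIR10 genome. Not given in the sources used here are tool versions, the tool that counted reads, whether it used strand, and which annotation it used. The authors deposited raw read counts per gene in 1 file per library, and these were used for all results. A further table with the authors' own comparison (mean, log2 fold change, standard error, statistic, p-values) was not used.

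Genotype and replicate came from the labels. Genes were kept by filterByExpr, scaled by TMM and tested with edgeR 4.0.16 in R 4.3.3 (glmQLFit, robust, and glmQLFTest, genotype as the only term), with Benjamini-Hochberg adjustment over 18961 genes. Replicates differed by more than sampling noise (chi-square per degree of freedom 2.46 to 20.1), so each counted once. The calculation was tested on simulated data. Annotation, exon lengths and sequences are from RefSeq TAIR10.1, where all 81 list genes matched. Alternatives were RLE scaling, DESeq2 1.42.0, limma-voom (limma 3.58.1), other filters, a replicate block, each library left out, each Col-0 run apart and thinned counts.

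The members and lists were chosen with earlier results of these data known. Of each other list, the text names every called gene changed at least 2-fold, up to 3 by smallest adjusted p and the most abundant 1 that did not pass. ACA11, ECA4, GLR3.7, GLR3.5, GLR2.1, OSCA1, CNGC2 and VHA-A3 were named after their values were seen, as were the genes at 0 or 1 read.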

Additional observations from a re-analysis of the deposited data

How the results depend on the processing

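The called members CAX1, CAX3, ACA8 and ACA10 kept their call and direction under each alternative, so at least 4 members were called in all of them. Against Col-0 replicate 3 alone, 4 members instead of 2 were called lower, with GLR3.2 and GLR3.3 added, and between 2 and 3 were called lower when a library was left out. Of the other lists, 11 genes instead of 7 were called higher against Col-0 replicates 1 and 2 alone, and 5 to 11 when a library was left out, the highest number being without Col-0 replicate 3. With a filter of 5 CPM in 3 libraries, 7 genes of the other lists instead of 12 were called lower, where fewer genes were tested. The difference in the CAX1 share of the exchangers was -6.35 percentage points from read counts without division by exon length, and ran from -8.07 to -6.36 when a library was left out. Of all genes, 5032 to 8417 were called when a library was left out. The labels number replicates in both genotypes alike, but same-numbered libraries did not deviate together (correlations -0.02, -0.00 and 0.02), so the numbers do not pair them, and with a replicate block 4 members and 6639 of all genes were called. No member and no tested gene of the 5 other transport lists was called in opposite directions under these alternatives. The marker genes were compared only by Col-0 run, and LHCB1.3 was called in opposite directions against the Col-0 runs. With 3 libraries per genotype, and GLR3.1 at 124 to 211 reads, differences smaller than the intervals given could not be seen.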
